A study of Mus musculus with 12 samples.

Results

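Messages of the enzymes and carriers that handle lactate were described in the triceps brachii, a muscle of the upper forelimb, of 12 mice. The genes were chosen by symbol and comprised the lactate dehydrogenase genes Ldha and Ldhb, the monocarboxylate transporter genes Slc16a1 and Slc16a3, and Bsg, which encodes basigin. All 5 were found among the 10187 genes of the table, and all 5 were among the 7247 genes that were tested. The level of Ldhb relative to Ldha was also followed in each mouse.

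Lactate dehydrogenase is a tetramer that interconverts pyruvate and lactate. Ldha encodes the subunit that prevails in fast glycolytic muscle, and Ldhb encodes the subunit that prevails in heart and in slow oxidative muscle. Lactate crosses membranes together with a proton through monocarboxylate transporters, of which MCT1 (Slc16a1) is associated with oxidative fibres and MCT4 (Slc16a3) with glycolytic fibres, and basigin is the membrane glycoprotein that brings both transporters to the cell surface.

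All mice were males of the C57/BL6 background that ate chow with 0.025% tamoxifen for 6 weeks, starting at 4 months of age. In myostatin-reduced mice exon 3 of the myostatin gene Mstn was floxed, so that tamoxifen-activated Cre recombinase could remove it in adults. The promoter that drives Cre, and whether wild-type mice carried Cre, are not given in the sources used here. From 6 months of age, active mice lived singly with a running wheel for 12 weeks, whereas inactive mice had none. This gave 4 groups of n = 3 mice, named by activity (I, inactive; A, active) and genotype (W, wild-type; M, myostatin-reduced) as IW, IM, AW and AM, and 1 library of polyadenylated RNA per mouse.

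Values are normalized read counts, scaled between samples and not divided by gene length. The reads counted in the genes of the table were estimated at 9023395 to 12184084 per mouse, which is not the number sequenced. Behind each value of Ldha stood an estimated 21232 to 31040 reads, whereas Ldhb had 161 to 3862, Slc16a1 had 388 to 997, Slc16a3 had 2184 to 4008 and Bsg had 5086 to 7176. The mean of Mstn messages changed by -84.9% with myostatin reduction (log2 change -2.66 ± 0.16 SE, limma adjusted p = 1.29e-06), and the highest myostatin-reduced value, 21.6, was below the lowest wild-type value, 79.7. Fast-fibre markers were abundant in every mouse, with a summed value over 11 genes of 155200 to 239600. In contrast, the summed value of 11 slow-fibre markers had a wide range within groups, from 94.3 to 1370 in IW, from 151 to 1831 in AW and from 117 to 1343 in AM, but only from 78.3 to 112 in IM.

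Ldha lies at chr7:54096845-54110997 on the plus strand of the mm9 build, Ldhb at chr6:142438769-142456477 on the minus strand, Slc16a1 at chr3:104442591-104462385 on the plus strand, Slc16a3 at chr11:120809794-120822182 on the plus strand and Bsg at chr10:79167103-79174724 on the plus strand. All are annotated as protein-coding. The 3′ part of Slc16a3 overlaps Csnk1d, which is on the opposite strand, and whether the counting used strand was not stated. A short pseudogene copy of Ldhb, Gm5514 at chr19:22012569-22012874, was not analysed here, and reads shared with it could have been split.

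Because levels of Ldhb and Slc16a1 varied across mice opposite to those of Ldha and Slc16a3, their start regions are shown for comparison. For Ldha, the difference between active and inactive mice was not called (limma adjusted p = 0.104). The windows hold 250 bases before and 50 bases after an annotated start, 5′ to 3′ on the gene's strand, from RefSeq on GRCm38.p6, a later build than mm9. A window was found for 4 of the 5 genes, with a pair of starts for Ldha. Capitals mark ACGTG or its reverse complement CACGT, the core that hypoxia-inducible factors bind.
Ldha, first start, chr7:46845554-46845853, plus strand: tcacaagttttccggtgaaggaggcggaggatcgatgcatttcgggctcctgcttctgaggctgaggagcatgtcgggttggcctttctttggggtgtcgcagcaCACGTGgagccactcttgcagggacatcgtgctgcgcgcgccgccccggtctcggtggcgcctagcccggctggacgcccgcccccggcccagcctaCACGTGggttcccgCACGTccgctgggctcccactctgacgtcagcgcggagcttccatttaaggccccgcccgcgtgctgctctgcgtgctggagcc
Ldha, second start, chr7:46846832-46847131, plus strand: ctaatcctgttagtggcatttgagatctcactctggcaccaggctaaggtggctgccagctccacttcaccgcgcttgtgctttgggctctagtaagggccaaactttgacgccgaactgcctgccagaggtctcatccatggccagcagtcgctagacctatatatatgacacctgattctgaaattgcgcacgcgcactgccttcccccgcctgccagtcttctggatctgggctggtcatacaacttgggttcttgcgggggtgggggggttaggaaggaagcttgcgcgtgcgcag
Ldhb, chr6:142507908-142508207, minus strand: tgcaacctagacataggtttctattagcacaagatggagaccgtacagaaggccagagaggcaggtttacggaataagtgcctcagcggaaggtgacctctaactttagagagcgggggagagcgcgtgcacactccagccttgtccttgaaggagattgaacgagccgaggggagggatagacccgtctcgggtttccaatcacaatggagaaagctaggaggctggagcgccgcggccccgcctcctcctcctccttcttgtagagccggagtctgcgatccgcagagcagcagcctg
Slc16a1, chr3:104638414-104638713, plus strand: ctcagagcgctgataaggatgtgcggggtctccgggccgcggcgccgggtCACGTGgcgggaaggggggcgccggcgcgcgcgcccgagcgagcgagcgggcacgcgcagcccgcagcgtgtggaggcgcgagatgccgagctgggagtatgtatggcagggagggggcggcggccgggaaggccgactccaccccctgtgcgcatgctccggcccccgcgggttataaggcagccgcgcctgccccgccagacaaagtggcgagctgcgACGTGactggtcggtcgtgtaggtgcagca
Slc16a3, chr11:120948817-120949116, plus strand: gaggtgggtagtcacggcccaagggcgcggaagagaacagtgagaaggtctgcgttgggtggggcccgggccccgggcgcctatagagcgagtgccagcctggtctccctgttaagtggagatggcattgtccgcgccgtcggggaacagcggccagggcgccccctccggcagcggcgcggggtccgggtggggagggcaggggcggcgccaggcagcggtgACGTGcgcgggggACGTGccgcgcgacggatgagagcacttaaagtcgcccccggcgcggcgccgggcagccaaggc

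The first Ldha window held 5 matches to ACGTG, counted on both strands, Slc16a1 held 3, Slc16a3 held 2, and the second Ldha window and Ldhb held none. Each palindrome CACGTG, to which E-box factors such as MYC bind, counts as 2 of these matches. CACGTG itself occurred 2 times in the first Ldha window and 1 time in Slc16a1. AAGGTCA, the half-site of oestrogen-related receptors, was searched on both strands and matched in none of the 5 windows. GGGCGG, the GC box, matched 3 times in the first Ldha window, 1 time each in Slc16a1 and Slc16a3 and not in Ldhb or the second Ldha window. Among all 32851 windows of this length, 19.6% held ACGTG, 7.15% held CACGTG, 4.72% held AAGGTCA and 35.7% held GGGCGG. These are matches of letters only, and binding was not measured.

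Per kilobase of transcript, Ldha was the most abundant of the 5 messages, with a mean level over all mice of 1400 ± 156 normalized reads per kb (SD, n = 12). Bsg followed at 335 ± 25.7, and Slc16a1 was the lowest at 12.8 ± 3.34. When all annotated exons were counted in the length, Ldha was at 829 per kb and remained the highest. Ldhb and Slc16a3 lay between them, and their order depended on the group. Per kb, Ldhb was below Slc16a3 in IM (25.1 ± 12.0 against 86.0 ± 4.25) and above it in AW (189 ± 91.6 against 58.9 ± 8.16) and AM (161 ± 45.1 against 65.9 ± 8.46), whereas in IW the levels of 69.4 ± 38.7 and 73.8 ± 10.7 did not differ beyond their spread.

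Ldha, the enzyme subunit of glycolytic muscle, varied little. IW mice 1 to 3 had 2293, 2692 and 2538 normalized reads, and IM mice had 2813, 2633 and 2851. Active mice had 2672, 2203 and 2046 in AW and 2286, 2106 and 2534 in AM. All AM mice were below all IM mice, while AW and IW overlapped, and the highest of the 12 values was 1.39 times the lowest.

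Ldhb, the subunit of oxidative muscle, varied most. IW mice 1 to 3 had 147, 50.9 and 73.4 normalized reads, and IM mice had 40.4, 43.2 and 14.8. Active mice had 109, 324 and 306 in AW and 212, 268 and 151 in AM. All AM mice were above all IM mice and all IM mice were below all IW mice, but AW mouse 1 was below IW mouse 1. The highest of the 12 values was 21.9 times the lowest.

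Slc16a1, which encodes MCT1, was measured at 71.0, 43.4 and 51.6 normalized reads in IW mice 1 to 3 and at 42.3, 38.3 and 35.6 in IM mice. In active mice they were 64.7, 73.7 and 70.6 in AW and 61.3, 76.8 and 50.7 in AM. As with Ldhb, all AM mice were above all IM mice and IM mice were below IW mice, and IW mouse 1, which had the highest Ldhb value among inactive mice, also had their highest Slc16a1 value.

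Slc16a3, which encodes MCT4, was measured at 269.6, 361 and 329 normalized reads in IW mice 1 to 3 and at 393, 357 and 368 in IM mice. In active mice they were 295, 227 and 245 in AW and 284, 249.8 and 323 in AM. All AM mice were below all IM mice, whereas AW and IW overlapped, AW mouse 1 lying above IW mouse 1.

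Bsg, the partner of both transporters, was measured at 531, 602 and 595 normalized reads in IW mice 1 to 3 and at 643, 636 and 596 in IM mice. In active mice they were 621, 528 and 542 in AW and 555, 547 and 649.6 in AM. The groups overlapped in every comparison of activity or genotype, and the highest value was 1.23 times the lowest.

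**Figure D1:**
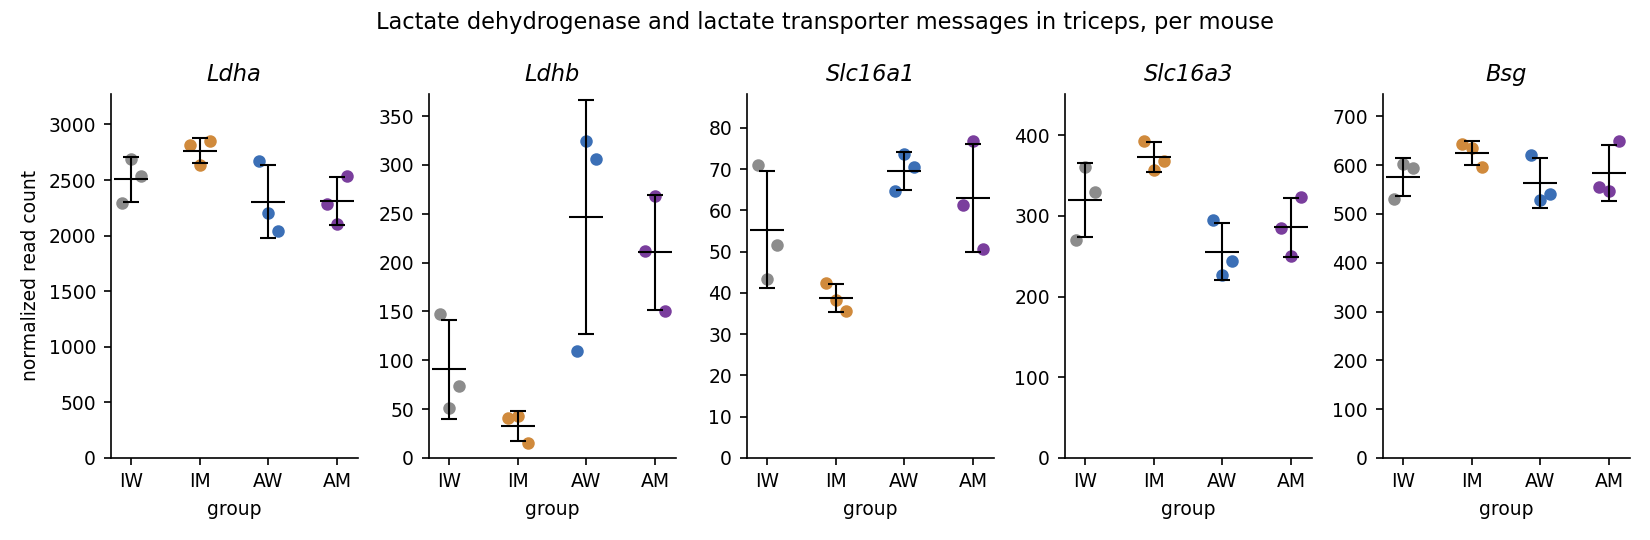
Normalized read counts (y axis, linear from 0, scale differing between panels) of Ldha, Ldhb, Slc16a1, Slc16a3 and Bsg in the 4 groups (x axis, n = 3 mice each). Points are mice, horizontal marks the group mean and bars the SD; Ldhb spans 14.8 to 324, whereas Bsg stays between 528 and 649.6.

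Activity went with higher Ldhb and Slc16a1 and lower Slc16a3. Mean Ldhb was 229 ± 86.6 in the 6 active mice against 61.7 ± 46.0 in the 6 inactive mice (SD), or 3.71-fold higher. Mean Slc16a1 was 66.3 ± 9.53 against 47.0 ± 12.9, or 1.41-fold higher, and mean Slc16a3 was 270.5 ± 36.3 against 346 ± 42.8, a change of -21.9%. Ldha was 2308 ± 247 in active and 2637 ± 204 in inactive mice, and Bsg was 574 ± 49.5 and 601 ± 39.7. For both of these the difference did not pass the test.

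In the limma fit to log2(value + 1) of all mice, with Benjamini-Hochberg adjustment over 7247 genes, the log2 change of active minus inactive mice was 2.08 ± 0.35 (SE) for Ldhb, with an adjusted p = 0.00284. It was 0.51 ± 0.12 for Slc16a1 (adjusted p = 0.0138) and -0.36 ± 0.09 for Slc16a3 (adjusted p = 0.0196). It was -0.20 ± 0.08 for Ldha (adjusted p = 0.104) and -0.07 ± 0.06 for Bsg (adjusted p = 0.487), the last of which was 0.04 when samples were scaled to equal sums. Thus 3 of the 5 genes were called at an adjusted p under 0.05, 2 higher and 1 lower, where 14.5% of all genes tested were called, 7.99% higher and 6.51% lower. Scaling to equal sums raised the median activity change of all genes by 0.10, and 90.7% of calls were then higher, against 55.1%. The same 3 genes were called under that scaling, at log2 changes of 2.19 for Ldhb, 0.62 for Slc16a1 and -0.25 for Slc16a3. By absolute log2 change, Ldhb ranked 5th, Slc16a1 174th, Slc16a3 477th, Ldha 1677th and Bsg 4719th of the 7247 genes. The median absolute activity change was 0.36 over the 5 genes and 0.10 over all genes tested.

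The call of Slc16a3 was narrow. It was lost when IW mouse 2, IM mouse 1, AW mouse 2, AW mouse 3 or AM mouse 2 was left out, with a limma adjusted p of 0.0505 to 0.0543, whereas Ldhb and Slc16a1 were called without any single mouse. Ldha was called without AW mouse 1 (log2 change -0.25, limma adjusted p = 0.0208) and when samples were weighted by their quality (log2 change -0.23, limma adjusted p = 0.0263).

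Markers of fibre type and of vessels moved with these genes. All 11 slow-fibre markers had a higher mean log2 level in active mice, with a median log2 change of 1.80, although only the calcium-binding gene Casq2 passed the test (limma adjusted p = 0.00306). The one with the highest mean read count, the calcium pump gene Atp2a2, had a log2 change of 1.28 (limma adjusted p = 0.211). Myh7, the slow myosin heavy chain, was at 376, 1.29 and 63.1 in IW mice 1 to 3 and at 1.43, 8.68 and 9.02 in IM mice. It was at 15.6, 447 and 498 in AW mice and at 164, 393 and 2.73 in AM mice. Myh7 thus ranged widely within 3 of the groups. Only 2.73 was measured in AM mouse 3, although its Ldhb value of 151 was slightly above the highest inactive value, 147 in IW mouse 1.

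Of 11 fast-fibre markers, 5 were called lower in active mice, among them Myh4, the one with the highest mean read count and the fast IIb myosin heavy chain (log2 change -0.57, limma adjusted p = 0.0127), and 1 was called higher, Myh1, the fast IIx myosin heavy chain (log2 change 1.51, limma adjusted p = 0.0019). Under scaling to equal sums 3 were called lower and 1 higher. Of 7 endothelial markers tested, 6 were called higher in active mice, where 7.99% of all genes were, with a median log2 change of 0.49. The exception was Cdh5, which had the highest mean read count, at 0.42 (limma adjusted p = 0.0831). Of these 7 markers, 7 were called under scaling to equal sums and 5 under median-of-ratios scaling. With a slow-fibre score per mouse, the mean log2 deviation of the slow-fibre markers, as a covariate, limma called 0 of them, 4 had an unadjusted p under 0.05 and their median log2 change was 0.34. The summed value of the 8 endothelial markers was 287 to 368 in IW, 256 to 272 in IM, 287 to 493 in AW and 336 to 547 in AM. No marker of macrophages and leukocytes (2 tested), adipocytes (1 tested), fibroblasts (6 tested) or Schwann cells (3 tested) was called for activity by limma, although 3 collagen genes of the fibroblast list had an unadjusted p under 0.05. Of the fibroblast markers 2 were called lower with that covariate, Pdgfra (log2 change -0.43, limma adjusted p = 0.0161) and Col1a1 (-0.46, limma adjusted p = 0.033). The markers with the highest mean read count in these lists were Lyz2 (log2 change 0.17), Cfd (0.31), Dcn (-0.06) and Pmp22 (-0.06), and the last 2 changed sign under scaling to equal sums (both 0.04). Of 9 red blood cell markers, Alas2 alone was analysed here, at values of 2.11 to 7.19. In whole muscle, fewer cells of a type and less RNA per cell cannot be told apart.

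Ldhb and Slc16a1 were higher, and Ldha, Slc16a3 and Bsg lower, in mice with more slow-fibre message. Across the 12 mice, Pearson's r of the log2 level with the log2 summed slow-fibre markers was 0.83 for Ldhb and 0.88 for Slc16a1, and it was -0.95 for Ldha, -0.93 for Slc16a3 and -0.93 for Bsg. After the group means were removed it was 0.81, 0.84, -0.95, -0.96 and -0.91 in the same order. Before that removal, r with the log2 summed fast-fibre markers was -0.93 for Ldhb and -0.94 for Slc16a1. It was 0.935 for Ldha, 0.97 for Slc16a3 and 0.81 for Bsg. With the log2 summed endothelial markers r was 0.81, 0.73, -0.85, -0.77 and -0.56 in the same order. These are descriptions over mice that share the scaling and the library preparation. With the slow-fibre score as a covariate in limma, the activity change was 1.47 for Ldhb (adjusted p = 0.00725), -0.18 for Slc16a3 (adjusted p = 0.0426) and 0.30 for Slc16a1 (adjusted p = 0.0673), so that Slc16a1 was no longer called. Of the 11 fast-fibre markers, 3 were still called lower with this covariate and 1 higher. The latter was Myh1 (log2 change 1.11, limma adjusted p = 0.00422), so the score did not take up every change in fibre-type markers. The part of fibre type and of endothelial cells in these changes was not otherwise tested.

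**Figure D2:**
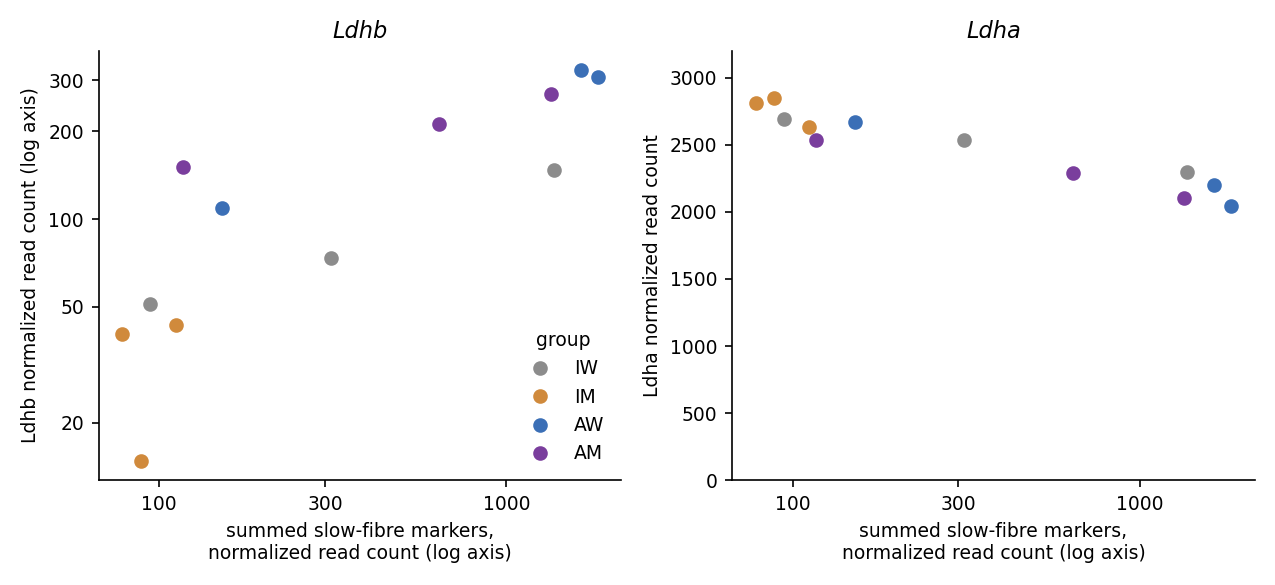
Ldhb (left, log axis) and Ldha (right, linear axis from 0) normalized read counts against the summed normalized read count of 11 slow-fibre markers (x axis, log), 1 point per mouse coloured by group. Ldhb is higher and Ldha lower in mice with more slow-fibre message, and AM mouse 3 has an Ldhb value of 151 at a marker sum of 117.

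None of the 5 genes passed the test for genotype, where limma called 5.78% of all genes tested, and 3 of the 5 had an unadjusted p under 0.05, as did 22.5% of all genes. The log2 change of myostatin-reduced minus wild-type mice was -0.77 ± 0.35 (SE) for Ldhb (adjusted p = 0.21), -0.32 ± 0.12 for Slc16a1 (adjusted p = 0.132) and 0.20 ± 0.09 for Slc16a3 (adjusted p = 0.211) by limma. It was 0.08 ± 0.06 for Bsg and 0.07 ± 0.08 for Ldha, which was -0.02 with the slow-fibre covariate. Mean Ldhb was 122 ± 105 in the 6 myostatin-reduced mice and 169 ± 118 in the 6 wild-type mice.

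No gene was called for the interaction of genotype and activity among all genes tested (0%), and none of the 5 had an unadjusted p under 0.05 by limma, against 297 of all genes. The interaction was widest for Ldhb, at 1.32 ± 0.69 on the log2 scale, with a 95% confidence interval of -0.18 to 2.83 and an adjusted p = 0.89. A larger activity effect on Ldhb in myostatin-reduced mice was therefore not shown.

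The pairwise contrasts gave the same order for Ldhb and Slc16a1. Between AM and IM, where limma called 7.84% of all genes, 2 of the 5 were called: Ldhb, which was 6.42-fold higher in AM (log2 change 2.75 ± 0.49, adjusted p = 0.00874), and Slc16a1, which was 1.62-fold higher (log2 change 0.67 ± 0.17, adjusted p = 0.0315). The mean of Slc16a3 differed by -23.3% in AM (log2 change -0.39 ± 0.12, limma adjusted p = 0.073), and it was called with sample weights (limma adjusted p = 0.0407), when only these 2 groups were fitted (limma adjusted p = 0.0463) and without AW mouse 1 (limma adjusted p = 0.0462). The Slc16a1 call was lost without AM mouse 2 or any 1 of the IM mice (limma adjusted p = 0.0642 to 0.145), and the Ldhb call was lost without AM mouse 2 (limma adjusted p = 0.0502). With the slow-fibre score as a covariate the log2 change was 0.40 for Slc16a1 (limma adjusted p = 0.108) and 1.95 for Ldhb (limma adjusted p = 0.0217). AM and IM did not overlap in 4 of the 5 genes, which was also so for 29.8% of all genes tested.

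Between AW and IW, where limma called 0.0276% of genes, none of the 5 was called and 2 had an unadjusted p under 0.05, as did 14.7% of all genes. Ldhb was 2.72-fold higher in AW (log2 change 1.42 ± 0.49, limma adjusted p = 0.198), and without AW mouse 1 the log2 change was 1.93 (limma adjusted p = 0.048). No gene of the 5 was free of overlap in the same direction in both genotypes, which 7.81% of all genes were.

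Between IM and IW, where limma called 2.51% of genes, none of the 5 was called and 2 had an unadjusted p under 0.05, as did 17.4% of all genes. Mean Ldhb was 32.8 ± 15.7 in IM and 90.5 ± 50.4 in IW (log2 change -1.44 ± 0.49, limma adjusted p = 0.148), and mean Slc16a1 was 38.7 ± 3.34 and 55.3 ± 14.2 (log2 change -0.48 ± 0.17, limma adjusted p = 0.154). IM and IW did not overlap in these 2 of the 5 genes and in 25.8% of all genes tested. Between AM and AW, where limma called 0.207% of genes, none of the 5 was called and none had an unadjusted p under 0.05, which 12.3% of all genes had. Ldhb was then at 210.4 ± 58.9 in AM and 247 ± 120 in AW, and its log2 change of -0.11 had a 95% confidence interval of -1.18 to 0.95.

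A pair of contrasts crossed both factors. From AW to IM, where limma called 18.7% of genes, 3 of the 5 were called: Ldhb with a log2 change of -2.86 ± 0.49 (adjusted p = 0.00292), Slc16a1 with -0.83 ± 0.17 (adjusted p = 0.00578) and Slc16a3 with 0.55 ± 0.12 (adjusted p = 0.0106). The Slc16a3 call was lost without AW mouse 2 (limma adjusted p = 0.0523), and Ldha was called without AW mouse 1 (log2 change 0.38, limma adjusted p = 0.0175). With the slow-fibre score as a covariate the log2 change was -0.47 for Slc16a1 (limma adjusted p = 0.065) and 0.25 for Slc16a3 (limma adjusted p = 0.0647), and Ldhb alone was called. From IW to AM, where limma called 2.97% of genes, none of the 5 was called and 1 had an unadjusted p under 0.05, as did 20.1% of all genes. That gene was Ldhb, with a log2 change of 1.31 ± 0.49 (limma adjusted p = 0.164). The order of group means for Ldhb and Slc16a1 was therefore AW, AM, IW and IM, and no neighbouring pair in it was called.

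**Figure D3:**
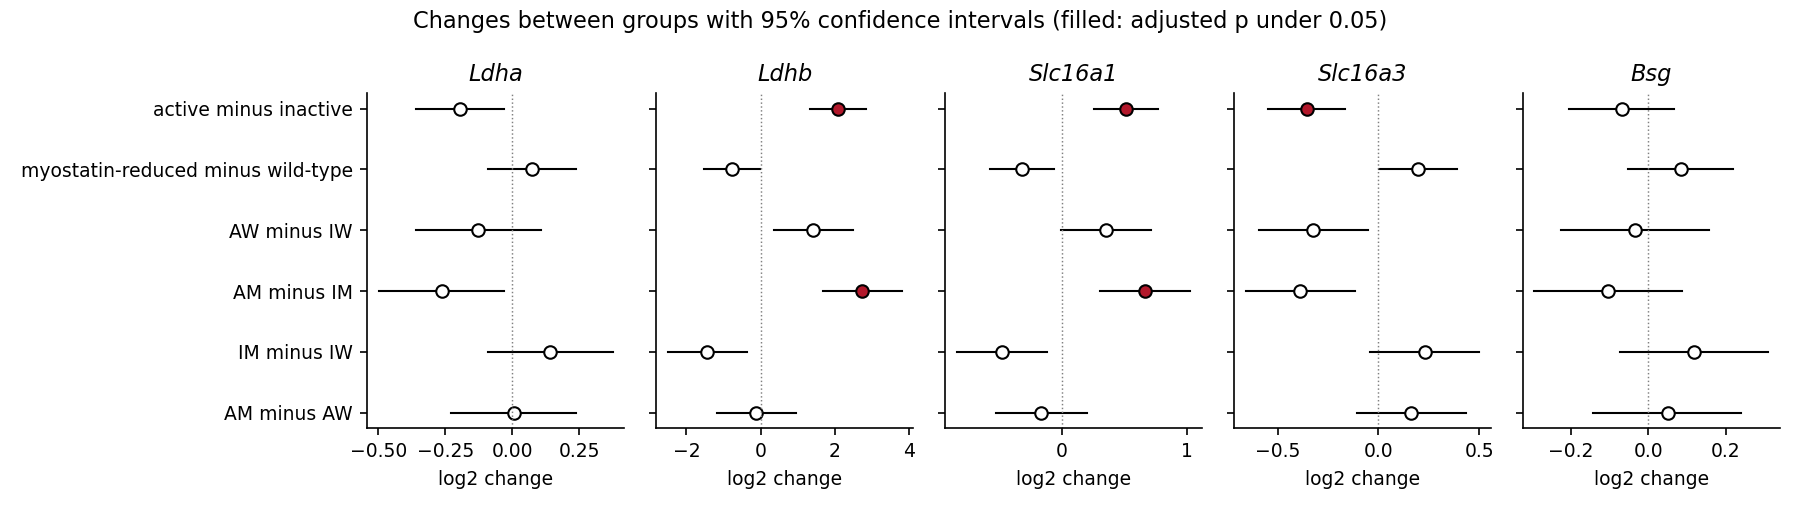
Log2 changes (x axis, scale differing between panels) of the 5 genes in 6 contrasts (rows) with 95% confidence intervals from limma on log2(value + 1); filled points have an adjusted p under 0.05. Filled points appear for Ldhb and Slc16a1 in active minus inactive and AM minus IM, and for Slc16a3 in active minus inactive.

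The relation of Ldhb to Ldha within a mouse is free of the scaling between samples. Corrected for transcript length, Ldhb messages amounted to 8.70%, 2.56% and 3.92% of Ldha messages in IW mice 1 to 3 and to 1.94%, 2.22% and 0.703% in IM mice. They amounted to 5.53%, 19.9% and 20.3% in AW mice and to 12.6%, 17.3% and 8.05% in AM mice. Ldha messages thus exceeded those of Ldhb in every mouse, and the highest ratio was 28.9 times the lowest, against 1.39 times for Ldha alone. All AM ratios were above all IM ratios, whereas AW mouse 1 was below IW mouse 1.

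The log2 ratio of Ldhb to Ldha was higher by 2.31 ± 0.51 (SE) in active than in inactive mice, or 4.95-fold, which passed an exact permutation test within genotypes (two-sided p = 0.01 over 400 arrangements, the smallest possible being 0.005). With the replicate number as a block the same difference did not pass (exact permutation test, two-sided p = 0.0625). With the slow-fibre score as a covariate the difference was 1.56 (permutation test, each mouse keeping its score, two-sided p = 0.01). That p is not exact, because the slow-fibre markers themselves were higher in active mice. Between genotypes the log2 ratio differed by -0.87 ± 0.51 (exact permutation test, two-sided p = 0.135), and without AW mouse 1 it differed by -1.18 (exact permutation test, two-sided p = 0.015). The activity difference of myostatin-reduced mice exceeded that of wild-type mice by 1.497 ± 1.015 on the log2 scale, a value that was not tested and that was 0.34 by group medians.

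The transporter pair had the same order of group means as the enzyme pair. Corrected for transcript length, the ratio of Slc16a1 to Slc16a3 was 0.258, 0.118 and 0.154 in IW mice 1 to 3 and 0.105, 0.105 and 0.0948 in IM mice. It was 0.215, 0.318 and 0.283 in AW mice and 0.211, 0.301 and 0.154 in AM mice. Slc16a3 messages therefore exceeded those of Slc16a1 in every mouse. This ratio was given as a description without a test.

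**Figure D4:**
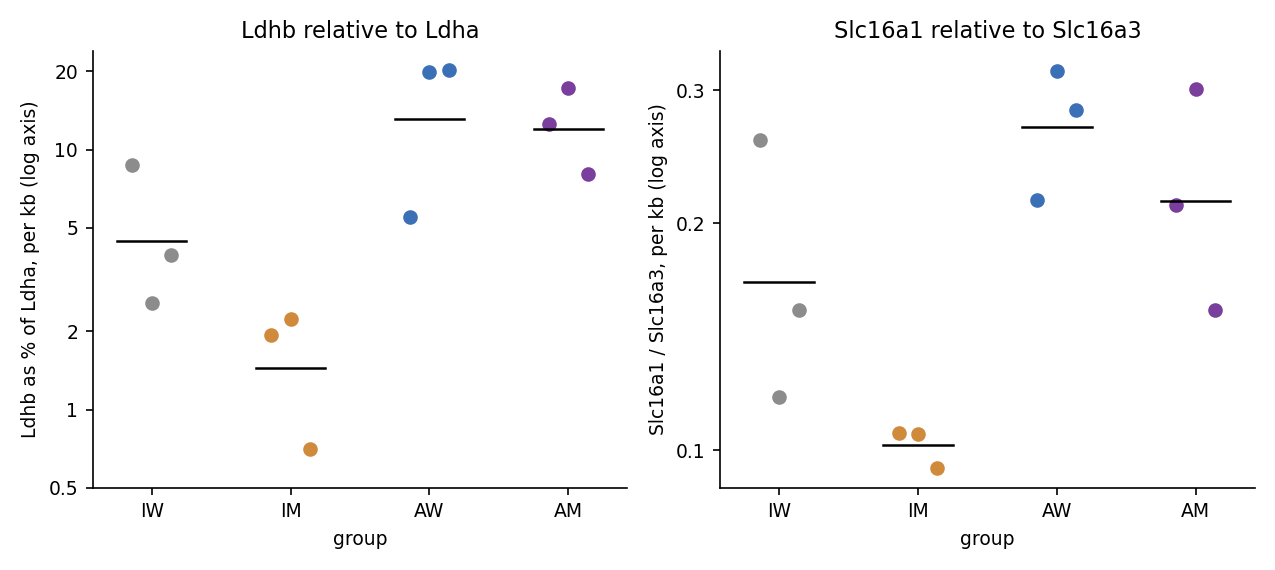
Left, Ldhb as a percentage of Ldha per kb of transcript, and right, the ratio of Slc16a1 to Slc16a3 per kb (y axes, log), by group (x axis, n = 3 mice each); points are mice and lines geometric means. The IM mice are lowest in both panels, at 0.703% to 2.22% and at 0.0948 to 0.105.

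Across the 12 mice the genes fell into a pair, Ldhb and Slc16a1, and a trio, Ldha, Slc16a3 and Bsg, that varied in opposite directions. On the log2 scale Pearson's r was 0.92 between Ldhb and Slc16a1, 0.92 between Ldha and Slc16a3, 0.83 between Slc16a3 and Bsg and 0.82 between Ldha and Bsg. It was -0.90 between Ldhb and Ldha, -0.94 between Slc16a1 and Slc16a3 and -0.64 between Ldhb and Bsg. After the group means were removed, r was 0.76 for Ldhb with Slc16a1, 0.89 for Ldha with Slc16a3 and -0.85 for Ldhb with Ldha. These values describe mice that share groups, scaling and library preparation, and no p was computed.

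When the 2555 genes whose mean reached 50 were compared, the patterns most like that of Ldhb over the 12 mice were those of Etfdh (r = 0.99), Echs1 (r = 0.99), Acaa2 (r = 0.99), Acat1 (r = 0.98) and Hsdl2 (r = 0.98). Etfdh passes electrons from fatty acid oxidation to the respiratory chain, Echs1 and Acaa2 are enzymes of mitochondrial fatty acid oxidation, and Acat1 acts on ketone bodies and isoleucine. Their log2 changes for activity were 0.41 to 0.91, values that follow in part from their choice by likeness to Ldhb over the same mice and support nothing further. Most like Ldha were Pvalb, the calcium buffer of fast fibres (r = 0.97), Phkg1, the catalytic subunit of muscle phosphorylase kinase (r = 0.97), and Gpd2, the mitochondrial glycerol 3-phosphate dehydrogenase (r = 0.96).

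Most like Slc16a1 were Rhou, a small GTPase (r = 0.96), Atp1b1, a subunit of the sodium pump (r = 0.96), and Tmem65 (r = 0.96). Most like Slc16a3 were Sub1 (r = 0.98), Abhd16a (r = 0.97) and Dnajb5 (r = 0.96), and most like Bsg were Tnni2, the fast troponin I (r = 0.94), Sepw1 (r = 0.93) and Drap1 (r = 0.91). As the genes were chosen by likeness over the same mice, their activity changes are not given as results.

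Other genes of lactate and pyruvate handling rose with activity more often than they fell, in a list chosen with earlier results of these data known. No test of the list as a whole was run. Of 41 listed genes, 26 were in the table and 23 were tested, of which 11 were called higher and 1 lower in active mice, where 7.99% of all genes tested were called higher and 6.51% lower. Their median log2 change was 0.12 against -0.02 over all genes. Under scaling to equal sums, where 90.7% of the calls over all genes were higher, 13 were called higher and 1 lower. The mitochondrial pyruvate carrier subunit gene Brp44 (now Mpc2) rose by 0.36 on the log2 scale (limma adjusted p = 0.00179), and its partner Brp44l (Mpc1) had a log2 change of 0.12 and was not called, although it was under scaling to equal sums (0.23, limma adjusted p = 0.0298).

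All 5 listed genes of the pyruvate dehydrogenase complex, which turns pyruvate into acetyl-CoA, were called higher in active mice. Their log2 changes were 0.27 for Pdha1, 0.34 for Pdhb, 0.36 for Dlat, 0.35 for Dld and 0.38 for Pdhx. Pdp1, the phosphatase that activates the complex, had a log2 change of 0.34 and was called, whereas the kinases that inhibit it, Pdk1, Pdk2 and Pdk4, were not called, with log2 changes of 0.08, 0.04 and 0.10.

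The largest changes of the list were those of Mdh1 and Got1, cytosolic enzymes of the malate-aspartate shuttle, which carries reducing equivalents into mitochondria. Mdh1 rose from 559 ± 102 in IW and 436 ± 33.7 in IM to 922 ± 179 in AW and 863 ± 105 in AM (log2 change 0.85 ± 0.11, limma adjusted p = 0.00129). Got1 had a log2 change of 0.82 ± 0.10 (limma adjusted p = 0.00118). Gpt, the cytosolic alanine aminotransferase, which interconverts pyruvate and alanine, had a log2 change of 0.70 (limma adjusted p = 0.0028), and Car14, a membrane carbonic anhydrase, had one of 0.44 (limma adjusted p = 0.00669).

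Among the tested relatives of the 5 genes, Slc16a10, an aromatic amino acid transporter, was the only one called (log2 change for activity -0.41, limma adjusted p = 0.0241), and it was not called with the slow-fibre covariate (-0.23, limma adjusted p = 0.129). Ldhd, the D-lactate dehydrogenase, had a log2 change of 0.12, Slc16a6 one of 0.10 and Slc16a9 one of -0.22, none of which was called. Ldhd was called under scaling to equal sums, at 0.22 (limma adjusted p = 0.0451).

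For genotype 1 of the 23 genes was called, a share that was not above the 5.78% of all genes tested. It was Pcx, pyruvate carboxylase, which was higher in myostatin-reduced mice (log2 change 0.39 ± 0.10, limma adjusted p = 0.0353). Its mean was 182 ± 10.4 in IM and 134 ± 26.8 in IW, and 152 ± 18.0 in AM and 121 ± 11.5 in AW. The call of Pcx was lost without AM mouse 1, AM mouse 3, AW mouse 2, AW mouse 3 or any 1 of the IM mice.

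**Figure D5:**
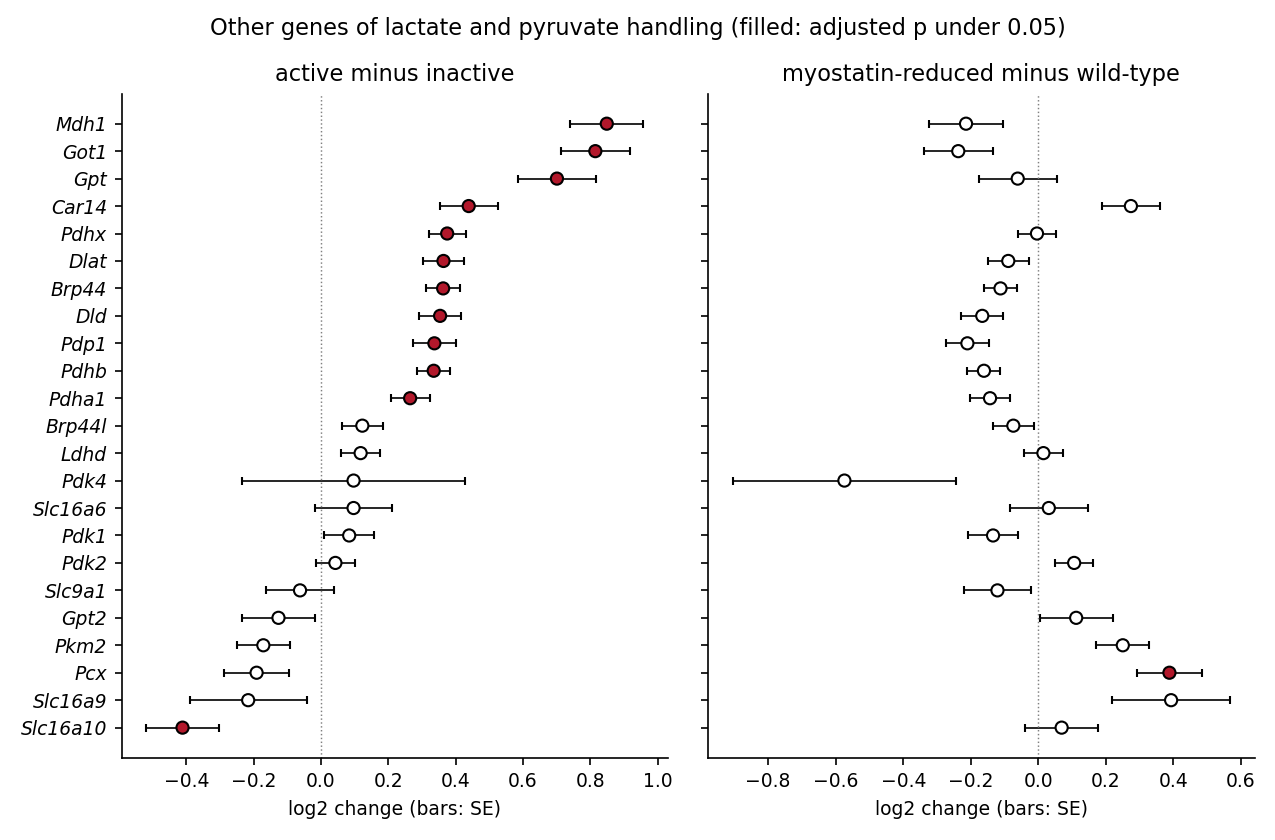
Log2 changes (x axis, bars are SE) of 23 other genes of lactate and pyruvate handling (rows) for active minus inactive (left) and myostatin-reduced minus wild-type mice (right); filled points have a limma adjusted p under 0.05. In the left panel 12 points are filled, led by Mdh1 at 0.85, and in the right panel only Pcx at 0.39.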

How the data were processed

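The authors sequenced polyadenylated RNA from the triceps of 12 mice as single-end reads, used CASAVA (version not stated) to map them to mm9, and counted exon reads per RefSeq gene. The deposited signal is a normalized read count per gene, scaled by the authors to an equal trimmed mean of nuclear genes and not divided by length. All 12 columns were matched to samples by name, and groups were taken from the sample titles. Whole multiples of 1 read (within 0.0055) made up 88.79% to 91.24% of values under 5 but 67.98% to 69.44% of those between 20 and 50, against 10.44% to 14.28% by chance, so no model of read counts was used.

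The 5 genes, the other gene lists and the tests were chosen with earlier results of these data known. Genes whose mean reached 10 were tested on log2(value + 1) by limma 3.58.1 (R 4.3.3), which understates changes of low genes, with 1 mean per group, a variance trend and two-sided Benjamini-Hochberg adjusted p-values, called under 0.05. A change from AW to IM is IM minus AW, and likewise for IW to AM. Confidence intervals are those of the fit and give the uncertainty of a difference between group means. They use a variance between mice that is shared by the 4 groups and moderated across genes. The fit was first checked on simulated data. Ratios per mouse were tested by exact permutation of activity within genotype, or of genotype within activity. Levels per kilobase used the mm9 transcript with the longest coding sequence. Other figures of the text are from Python 3.11.15 with numpy 2.4.6 and pandas 2.3.3.

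Genes outside the 5 were named by a rule: called genes of the pathway and regulator lists, relatives in the table, leading markers of each list, and the most similar patterns over genes whose mean reached 50. Brp44l, the Pdk genes, Casq2, Myh7, Myh1, Pdgfra, Col1a1, Arnt, Ppargc1a and Hif1a were named after their values were seen. A gene that the naming rule covers is not reported here. Alternatives were other pseudocounts (0.5 and 5), no filter, other scalings, no trend, sample weights, the slow-fibre score, only the groups compared, a replicate block and leaving out each mouse. Replicate numbers do not mark the same animal across groups. Deviations of same-numbered mice from their group means correlated in IM and AM (0.24, 0.17 and 0.32) but not in every pair of numbers of the other groups, and the block did not change the calls between IM and AM.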

Additional observations from a re-analysis of the deposited data

How the results depend on the processing

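Ldhb and Slc16a1 were called higher and Slc16a3 lower in active mice under every pseudocount, filter, scaling and variance setting tried and with sample weights, and the slow-fibre score ended the Slc16a1 call. The cause of each change below was not tested. No share of all genes called in the same fit is given beside the counts that follow, so they describe the listed genes only. With sample weights, 1 of the 5 genes was called between AW and IW, 3 between AM and IM and 5 from AW to IM, and 3 were called between AM and IM when only these groups were fitted. With the slow-fibre score, 1 was called between AM and IM, 1 from AW to IM and 1 from IW to AM, Ldhb in each. Pathway genes called for genotype were 3 under equal sums, 3 with sample weights and 2 with the slow-fibre score. Leaving out 1 mouse gave 2 to 4 genes called for activity, 0 to 1 between AW and IW (1 without AW mouse 1), 0 to 3 between AM and IM, 2 to 4 from AW to IM, and 0 to 3 pathway genes called for genotype. The log2 ratio of Ldhb to Ldha then differed by -1.178 to -0.606 between genotypes, and its interaction was 0.875 to 1.893, against 0.345 by group medians.

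With the replicate number as a block, the ratio's activity difference stayed at 2.308 with a two-sided p = 0.0625 in an exact permutation test over 64 arrangements. Apart from that p, the block ended or added no call among the 5 genes, and same-numbered mice were different animals.

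Signs turned for no change that was called in the fit reported above, although Bsg from AW to IM, which turned under 2 settings, was called with sample weights (0.21, limma adjusted p = 0.0297). Under equal sums the log2 change of Bsg was 0.04 for activity, 0.058 between AW and IW, 0.022 between AM and IM and -0.018 from AW to IM, and that of Ldha between AM and AW was -0.04. With the slow-fibre score Bsg was at 0.036, 0.039, 0.033 and -0.028 in the same contrasts, Ldha at -0.023 for genotype and -0.051 between AM and AW, Ldhb at 0.149 between AM and AW, and the Slc16a3 interaction at 0.04, or 0.005 with sample weights. Leaving out 1 mouse gave ranges across 0 for the interaction of Slc16a3 (-0.158 to 0.052) and Bsg (-0.148 to 0.003), for AM against AW of Ldha (-0.076 to 0.117), Ldhb (-0.62 to 0.162) and Bsg (-0.03 to 0.121), for AW against IW of Bsg (-0.106 to 0.012) and for IW to AM of Bsg (-0.064 to 0.061). Adding the pseudogene Gm5514 to Ldhb was not run. The 95% confidence intervals of the genotype change lay on one side of 0 for Ldhb (-1.526 to -0.024), Slc16a1 (-0.575 to -0.063) and Slc16a3 (0.005 to 0.387), but none passed the adjustment over all genes. The lowest Ldhb value rested on 161 reads.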

Other observations

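Of 13 listed regulators of oxidative and hypoxic gene expression, 10 were tested and 3 were called higher in active mice by limma, where 7.99% of all genes tested were. Egln3, a prolyl hydroxylase that marks hypoxia-inducible factors for degradation and is itself induced by them, had a mean normalized read count of 90.9 ± 20.5 in AW and 104 ± 29.7 in AM (SD, n = 3) against 29.4 ± 7.49 in IW and 24.4 ± 1.61 in IM, and a log2 change of 1.81 ± 0.16 (limma adjusted p = 0.00032). Esrrg, an oestrogen-related receptor of oxidative muscle, had a log2 change of 0.83 ± 0.23 (limma adjusted p = 0.0293), which was 0.445 and not called with the slow-fibre covariate (limma adjusted p = 0.172). Esrra had one of 0.37 ± 0.06 (limma adjusted p = 0.0029). Ppargc1a, the coactivator of these receptors, had a log2 change of 0.16 (limma adjusted p = 0.276), and Hif1a one of -0.10 (limma adjusted p = 0.395), and neither was called. Under scaling to equal sums, where 1404 of all genes were called higher against 579, 5 regulators were called higher of 11 tested, and with the slow-fibre covariate 2 were. Under median-of-ratios scaling 3 were called higher and Arnt, a partner of hypoxia-inducible factors, was called lower (log2 change -0.17, limma adjusted p = 0.0434). No regulator was called for genotype by limma, and Esrrg alone had an unadjusted p under 0.05.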
